A study of Mus musculus with 21 samples.

Results

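Gimap genes encode GTPases of immunity-associated proteins, and 8 of them (Gimap1, Gimap3, Gimap4, Gimap5, Gimap6, Gimap7, Gimap8 and Gimap9) were followed by their symbols through 21 libraries of 3′ mRNA-seq. They are 8 of 47643 genes in the count table, and all 8 were among the 15300 genes with at least 10 counts over all libraries. Splenic CD4+ T cells came from Tg4 Tiger Nr4a3-Tocky mice, a strain shared by every group including the controls. Tg4 denotes a T cell receptor transgene that recognises a peptide of myelin basic protein (MBP), Tiger reports Il10 by GFP, and in Nr4a3-Tocky cells the Nr4a3 gene drives a Timer protein that is blue when new and red when mature. Mice were untreated (control) or received 0.8 μg or 80 μg of the [4Y] form of the MBP peptide under the skin without adjuvant, and spleens were collected 4 h, 12 h or 24 h later, with 3 libraries in each of the 7 groups. The study's methods describe replicates as separate mice, each stained with its own CD4 fluorochrome and sorted in parallel. Per the study's methods the sort took Blue+Red- cells from spleens taken after 4 h, Blue+Red+ cells after 12 h, and finally Blue-Red+ cells after 24 h. A change over time is therefore also a change of gate. The gate of the control cells was not stated, and the doses share a gate at each time. The age of the mice is not given in the sources used here.

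Gimap proteins sit on the membranes of lymphocyte organelles such as lysosomes, endoplasmic reticulum and mitochondria, where members bind GTP and pair with each other. They are best known for keeping resting T cells alive: loss of Gimap5 or Gimap1 in mice depletes peripheral lymphocytes, whereas Gimap4 hastens the death of T cells. Gimap6 binds a protein of the autophagy machinery, Gimap7 hydrolyses GTP as a dimer, Gimap3 is a close relative of Gimap5 known for an effect on the inheritance of mitochondrial DNA variants, and Gimap8 is the largest member, with several GTPase domains.

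The libraries held 2352800 to 6244279 counts. A single gene, Gm42418, took 23.98% to 24.67% of them in control and 18.11% to 22.77% at 4 h. It took 16.97% to 25.71% at 12 h and 23.31% to 27.83% at 24 h. The part of Gm42418 in the differences of the Gimap genes was not tested. Gimap7 was the least counted member, with 26 to 820 counts in a library, and every other member had at least 132 counts in every library. Markers fixed for T cells summed to between 1680 and 3850 CPM (counts scaled to a library total of 1000000) and all 8 of them were detected. The T cell marker sum itself moved with the groups, from 3550 to 3850 CPM in control to 1740 to 2180 CPM at 4 h, 1680 to 1890 CPM at 12 h and 3100 to 3580 CPM at 24 h. Its members did not all move alike. At 4 h after 80 μg, Trac was 765 to 876 CPM, against 649 to 748 CPM in control. Cd3d, Cd3e, Cd3g, Trbc1, Trbc2, Cd4 and Thy1 were lower there than in control, with Cd4 at 46.4 to 73.4 against 293 to 334 CPM. B cell markers, 7 of 7 detected, summed to 43.4 to 106 CPM in control and to 2.9 to 52.5 CPM in the immunised groups. CD8 T and NK cell markers summed to 49.5 to 76.9 CPM in control, 16.6 to 32.4 CPM at 4 h after 0.8 μg and 20.8 to 33.7 CPM at 12 h after 80 μg, and Foxp3, of regulatory T cells, was 4.27 to 16.9 CPM in control and 12.6 to 55.3 and 20.2 to 25.5 CPM at 24 h after 0.8 μg and 80 μg. Between doses, T cell markers were 2010 to 2180 CPM after 0.8 μg and 1740 to 1860 CPM after 80 μg at 4 h, where Foxp3 was 0.574 to 1.84 and 3.85 to 5.77 CPM and monocyte and macrophage markers were 10 to 29 and 2.08 to 6.67 CPM. CD8 T and NK cell markers were 66.8 to 76.1 and 20.8 to 33.7 CPM at 12 h in the same order, and B cell markers 28.4 to 40.8 and 7.69 to 16.8 CPM at 24 h. The part of these markers in the differences of the Gimap genes was not tested. In RNA from sorted pools, fewer cells of a type and less RNA per cell cannot be told apart.

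All 8 genes lie in a single cluster of 123.6 kb on chromosome 6 (GRCm38, chr6:48647234-48770851), in the order Gimap8, Gimap9, Gimap4, Gimap6, Gimap7, Gimap1, Gimap5 and Gimap3, 6 on the plus strand and Gimap6 and Gimap3 on the minus strand. Their transcripts are distinct enough to be counted apart at the 3′ end: of the 28 pairs of members, only Gimap5 and Gimap3 shared any stretch of 40 bases, and none did so within the last 500 bases of a transcript. The read-through gene Gm28053 shares 3.5% to 6.4% of the exon bases of Gimap5, Gimap7 and Gimap1 and was counted 1 to 31 times in a library. In Gimap5 the shared bases include 104 of the last exon (6.2%), where 3′ reads fall, so reads from there may have been assigned to either gene or to none. The antisense gene Gimap1os overlaps 36% of the exon bases of Gimap1, none of them in the last exon of Gimap1.

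RefSeq promoter windows (GRCm38.p6, 250 bases before to 50 bases after the start) matched all 8 members, 9 windows in all. Of these, 4 are shown: that of Gimap4, the most counted member, of Gimap6, which fell furthest at 12 h, and of Gimap5 and Gimap3, relatives that moved apart. Capitals mark matches, on either strand, to the short motifs searched.
Gimap4 promoter, chr6:48684328-48684627, plus strand: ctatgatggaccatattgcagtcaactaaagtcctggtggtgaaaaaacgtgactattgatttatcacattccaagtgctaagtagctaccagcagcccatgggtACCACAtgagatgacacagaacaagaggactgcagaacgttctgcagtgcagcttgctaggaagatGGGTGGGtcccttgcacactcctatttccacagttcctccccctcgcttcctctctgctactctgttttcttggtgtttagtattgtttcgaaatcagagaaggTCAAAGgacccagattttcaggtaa
Gimap6 promoter, chr6:48708195-48708494, minus strand: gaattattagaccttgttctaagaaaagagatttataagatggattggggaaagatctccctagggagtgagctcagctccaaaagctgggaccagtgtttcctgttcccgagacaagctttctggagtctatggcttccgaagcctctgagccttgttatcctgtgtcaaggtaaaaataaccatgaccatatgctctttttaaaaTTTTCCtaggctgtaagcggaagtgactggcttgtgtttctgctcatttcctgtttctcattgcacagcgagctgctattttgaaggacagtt
Gimap5 promoter, chr6:48745947-48746246, plus strand: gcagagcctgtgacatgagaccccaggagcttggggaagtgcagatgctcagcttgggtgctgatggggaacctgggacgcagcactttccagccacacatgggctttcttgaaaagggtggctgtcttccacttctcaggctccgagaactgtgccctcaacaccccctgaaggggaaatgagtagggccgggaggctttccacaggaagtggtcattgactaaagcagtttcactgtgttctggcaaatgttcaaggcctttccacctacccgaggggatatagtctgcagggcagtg
Gimap3 promoter, chr6:48770802-48771101, minus strand: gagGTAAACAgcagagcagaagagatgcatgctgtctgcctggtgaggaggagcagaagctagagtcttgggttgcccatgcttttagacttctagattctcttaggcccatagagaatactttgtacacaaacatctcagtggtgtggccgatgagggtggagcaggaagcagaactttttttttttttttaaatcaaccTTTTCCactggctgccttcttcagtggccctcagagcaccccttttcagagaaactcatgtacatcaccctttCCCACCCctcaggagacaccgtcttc

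The motifs were FOXO (GTAAACA), KLF (CNCACCC), ETS (CCGGAAG), RUNX (TGTGGT), AP-1 (TGANTCA), TCF/LEF (CTTTGA) and NFAT (GGAAAA). The FOXO letters were found only in the Gimap3 window among the 9, and in 3.66% of all 32544 distinct windows. KLF letters were in the windows of Gimap4 and Gimap3 (31% of all windows), and RUNX letters in those of Gimap4, Gimap7 and Gimap1 (16.7%). The TCF/LEF letters occurred in Gimap4 and Gimap7 (16%) and the NFAT letters in Gimap6, Gimap1 and Gimap3 (23.3%). No window of a member held the ETS (8.91%) or AP-1 (7.79%) letters, and the windows of Gimap5, Gimap8 and Gimap9 held none of the motifs. The windows hold these letters or do not, which is a description of sequence and not of binding.

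Summed over the members, Gimap transcripts were abundant in untreated cells, lowest at 12 h and nearer to the control level at 24 h. Normalised counts (counts divided by the size factor of the library) summed to 7442 ± 342 in control (SD, n = 3). At 4 h the sum was 2123 ± 222 after 0.8 μg and 4271 ± 257 after 80 μg, or 28.5% and 57.4% of control. By 12 h it was 1555 ± 45 and 2342 ± 207, or 20.9% and 31.5% of control. At 24 h it stood at 5198 ± 464 and 6186 ± 148, or 69.8% and 83.1%. In each pair the higher dose had the higher sum, and on this scale the libraries of the 2 doses did not overlap at any time. As shares of library totals they overlapped at 24 h. The shares there were 0.1328%, 0.1293% and 0.1641% after 0.8 μg and 0.1565%, 0.153% and 0.1611% after 80 μg.

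**Figure D1:**
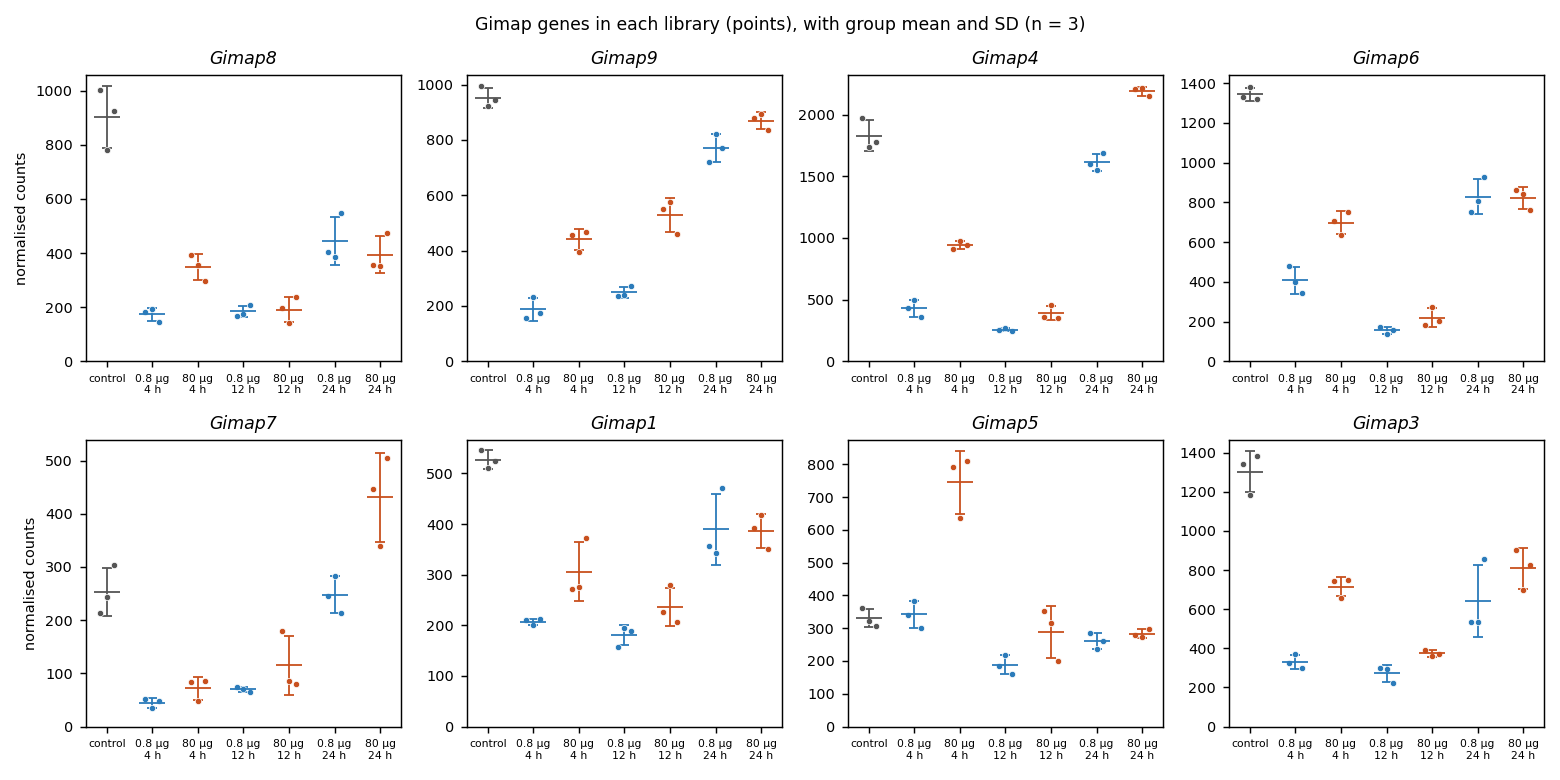
Normalised counts (y axis, from 0) of each Gimap gene in every library (points) by group, with the group mean (bar) and SD (whiskers), n = 3 libraries. In 7 of the 8 panels the 4 h and 12 h groups lie below the control, whereas Gimap5 is highest in the 80 μg 4 h group, at 635 to 809.

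Gimap4, the most counted member, held 1970, 1736 and 1777 normalised counts in the 3 control libraries. It held 435, 495 and 355 at 4 h after 0.8 μg and 914, 976 and 944 after 80 μg. Every 4 h library was below every control library, and the doses were apart. Its lowest values came at 12 h, with 254, 272 and 243 at the low dose and 359, 453 and 351 at the high dose. At 24 h the low dose gave 1602, 1550 and 1688 and the high dose 2205, 2215 and 2148. The 24 h libraries thus lay just under control at the low dose and above it at the high dose.

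Gimap6, the member tied to autophagy, was 1329, 1381 and 1322 in control. It was 481, 397 and 344 at 4 h after 0.8 μg, and 704, 636 and 751 after 80 μg. At 12 h it was down to 172, 138 and 155 at the low dose and 184, 272 and 202 at the high dose, the lowest share of control among the members (11.5% and 16.3%). At 24 h it reached 753, 806 and 925 against 861, 844 and 761, where the doses overlapped and both stayed below control.

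Gimap3 read 1342, 1184 and 1382 in control. After 4 h it read 326, 370 and 299 at 0.8 μg and 742, 659 and 748 at 80 μg. Its 12 h values were 299, 294 and 224 at the low dose and 392, 360 and 369 at the high dose. At 24 h the low dose gave 534, 536 and 857, where replicate 3 stood above the others, and the high dose gave 904, 697 and 828. No immunised library reached the lowest control library. Gimap8 had the lowest share of control at 24 h after 80 μg among the members. It held 1003, 780 and 925 in control, 181, 194 and 145 at 4 h after 0.8 μg and 391, 357 and 298 after 80 μg. At 12 h its doses overlapped, at 169, 176 and 207 against 195, 142 and 236. At 24 h it was 402, 385 and 548 against 357, 352 and 473, which is 49.3% and 43.7% of control, all 6 libraries below control.

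Gimap9 read 994, 923 and 944 in control, 157, 234 and 173 at 4 h after 0.8 μg and 458, 396 and 467 after 80 μg. Unlike the most counted members it was not lowest at 12 h: the low dose gave 235, 239 and 271 and the high dose 551, 574 and 459. By 24 h it was at 80.9% of control after 0.8 μg (720, 823 and 769) and 91.3% after 80 μg (881, 893 and 836). Gimap1, which mature lymphocytes need to persist, had the narrowest spread of group means relative to its lowest. It went from 547, 511 and 524 in control to 210, 200 and 212 at 4 h after 0.8 μg and 271, 275 and 373 after 80 μg. At 12 h it was 158, 195 and 189 against 227, 279 and 206, and at 24 h 357, 342 and 471 against 392, 418 and 351.

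Gimap7, the least counted member, went from 213, 243 and 303 in control to 52.5, 34.3 and 47.5 at 4 h after 0.8 μg and to 83.3, 47.5 and 85.7 after 80 μg. At 12 h it held 74.5, 70 and 65.8 at the low dose, and 180, 85.1 and 80.7 at the high dose, where replicate 1 stood above the others. At 24 h the low dose, at 246, 283 and 214, overlapped with control. The high dose, at 447, 340 and 505, was above every control library.

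Gimap5, which lymphocytes need to survive, ran differently. It was 363, 322 and 308 in control and overlapped with that at 4 h after 0.8 μg, at 341, 382 and 302. After 80 μg it stood above every other library, at 792, 635 and 809. It was then lower at 12 h, at 186, 219 and 161 after 0.8 μg and 352, 317 and 199 after 80 μg. At 24 h it held 284, 236 and 261 against 278, 272 and 298, with all 6 libraries under the lowest control library.

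Set against untreated cells, most of the family was lower 4 h after 0.8 μg and again at 12 h, when Gimap4 and Gimap6 were further below control and Gimap9 was nearer to it than at 4 h. A gene was called when its DESeq2 adjusted p was below 0.05 and its shrunken log2 fold change exceeded 1 in size. At 4 h after 0.8 μg, 7 of the 8 members were called lower, all but Gimap5, with a median log2 fold change over the 8 of -2.02. Among all 13814 genes tested in that comparison 22.9% were called lower, and their median log2 fold change was -0.13. Values ran from -2.44 ± 0.27 for Gimap7 (SE, adjusted p = 4.45e-18), -2.37 ± 0.18 for Gimap8 and -2.34 ± 0.13 for Gimap9 to -1.34 ± 0.16 for Gimap1. Gimap5 differed by 0.04 ± 0.17 (adjusted p = 0.861, 95% interval of the unshrunken difference -0.29 to 0.37), and the sign of this value turned with library totals as the scale, to -0.11. At 12 h after 0.8 μg the same count of 7 was called lower (20% of all genes), and Gimap5 passed the adjusted p alone at -0.80 ± 0.17, by which 27.2% of all genes were lower. Gimap6 was then lowest at -3.11 ± 0.14 (adjusted p = 2.6e-105), followed by Gimap4 at -2.82 ± 0.11. The 6 comparisons with control share the same 3 control libraries.

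After 80 μg the fall at 4 h was shallower and Gimap5 went the other way. Called lower at 4 h were 3 members, Gimap7 at -1.78 ± 0.26, Gimap8 at -1.36 ± 0.18 and Gimap9 at -1.11 ± 0.11, where 24.5% of all genes were called lower. Gimap4 (-0.95 ± 0.10), Gimap6 (-0.94 ± 0.13), Gimap3 (-0.86 ± 0.15) and Gimap1 (-0.78 ± 0.15) passed the adjusted p alone, by which 30% of all genes were lower. Of these, Gimap4, Gimap6 and Gimap3 also passed the fold threshold with library totals as the scale, at -1.11, -1.10 and -1.01. Gimap5 was called higher at 1.16 ± 0.16 (adjusted p = 6.53e-12), where 18% of all genes were called higher. At 12 h 6 members were called lower, against 19.6% of all genes, led by Gimap6 at -2.60 ± 0.14 and by Gimap4 and Gimap8 at -2.23 each. Gimap9 (-0.85 ± 0.11) passed the adjusted p alone (26.8% of all genes lower) and Gimap5 did not pass (-0.19 ± 0.17, adjusted p = 0.346). The 12 h call of Gimap7 (-1.12 ± 0.25) fell under the fold threshold, at -0.92 to -0.97, without 80 μg 12 h replicate 2, 80 μg 12 h replicate 3 or control replicate 3.

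**Figure D2:**
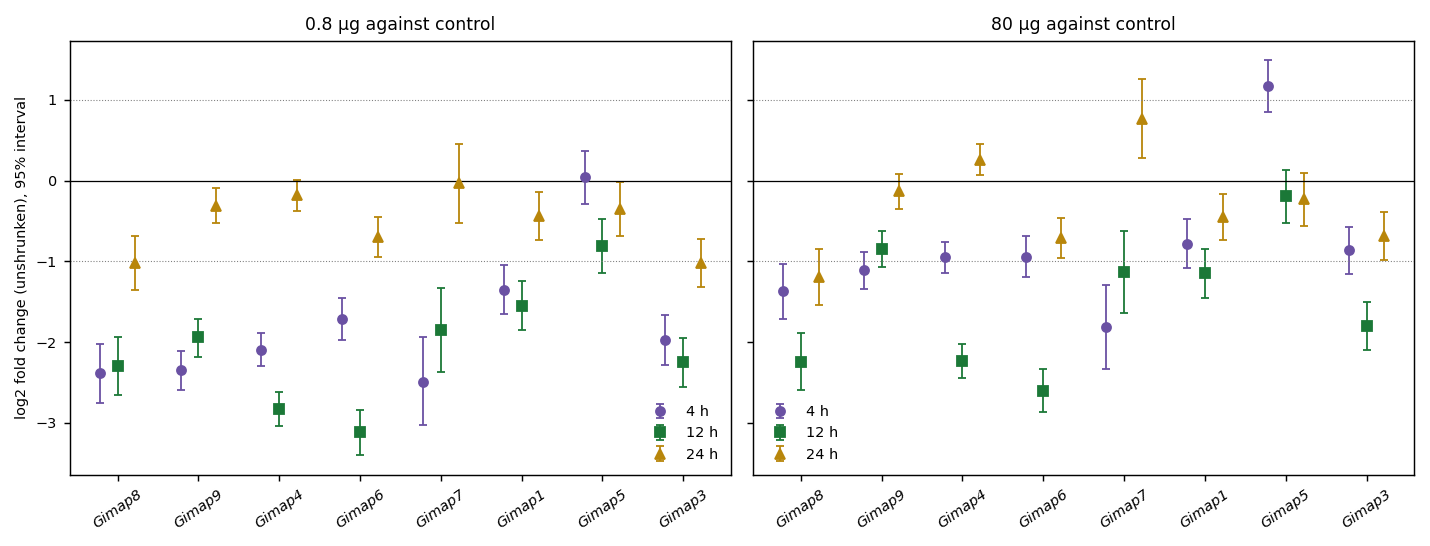
Unshrunken log2 fold change (y axis) of each Gimap gene against control at 4 h, 12 h and 24 h after 0.8 μg (left) and 80 μg (right), with 95% intervals, n = 3 libraries a group. Dotted lines mark a log2 fold change of 1 in either direction. The 24 h points lie nearest to 0 for most genes, and Gimap5 at 4 h after 80 μg is the only point above 1.

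At 24 h, in cells that had lost the blue form of the Timer, most members were nearer to untreated cells than at 4 h and 12 h. Most still had means below control. After 0.8 μg, 2 members were called lower, Gimap8 and Gimap3 at -1.01 each, against 5.7% of all genes. Both lie at the fold threshold, and the count went from 2 to 0 without 0.8 μg 24 h replicate 1 or 2 or without control replicate 1 or 3. Gimap6 (-0.70 ± 0.13), Gimap1 (-0.43 ± 0.15) and Gimap9 (-0.31 ± 0.11) passed the adjusted p alone, where 14.8% of all genes were lower. Gimap4 (-0.18 ± 0.10), Gimap5 (-0.35 ± 0.17) and Gimap7 (-0.03 ± 0.25) did not pass. After 80 μg the call was limited to Gimap8 at -1.18 ± 0.17 (adjusted p = 1.51e-10), against 7.7% of all genes. Gimap6, Gimap3 and Gimap1 were lower by the adjusted p alone, at -0.71, -0.68 and -0.44, as were 16.5% of all genes. In the opposite direction Gimap7 (0.76 ± 0.24, adjusted p = 0.00702) and Gimap4 (0.26 ± 0.10, adjusted p = 0.0235) were above control by the adjusted p alone, where 21.6% of all genes were higher by that rule. With library totals as the scale these became 0.53 (adjusted p = 0.0892) for Gimap7 and 0.02 (adjusted p = 0.89) for Gimap4. The adjusted p of Gimap7 exceeded 0.05 without 80 μg 24 h replicate 3 (0.0681) or control replicate 1 (0.0549). That of Gimap4 did so without 80 μg 24 h replicate 1 (0.0626) or 2 (0.0699), or without control replicate 2 (0.103) or 3 (0.078).

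The direct comparison of doses sets the cells sorted after 80 μg beside those sorted after 0.8 μg at a given time and gate. The paper reports that the proportion of responding cells also depended on the dose, and the part of this in the differences was not tested. At 4 h, 7 of the 8 members were higher after 80 μg than after 0.8 μg by the adjusted p alone, as were 5.49% of all genes. Called with the fold threshold were 5 of 8 members, Gimap9 (1.23 ± 0.13, adjusted p = 9.33e-20), Gimap4 (1.14 ± 0.11, adjusted p = 1.66e-24), Gimap5 (1.12 ± 0.16), Gimap3 (1.11 ± 0.16) and Gimap8 (1.00 ± 0.19). Of all 11442 genes tested 2.95% were called higher. The adjusted p alone passed for Gimap6 (0.77 ± 0.13) and Gimap1 (0.56 ± 0.16), and Gimap7 did not (0.66 ± 0.28, adjusted p = 0.127). The median over the 8 was 1.06, against -0.02 over all genes tested. For 7 members every 80 μg library was above every 0.8 μg library, which held for 13.1% of all genes, and only Gimap7 overlapped. The call of Gimap8 rested on the fold threshold: its value was 0.88, 0.91 and 0.98 without 0.8 μg 4 h replicate 3, 80 μg 4 h replicate 1 and 80 μg 4 h replicate 2, with adjusted p of 0.000448, 0.000259 and 9.29e-05. It was 0.99 in a fit to the 6 libraries alone, and fell just under the threshold, at 1.00 when rounded, with library totals as the scale and with genes limited to a mean of at least 20 counts.

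**Figure D3:**
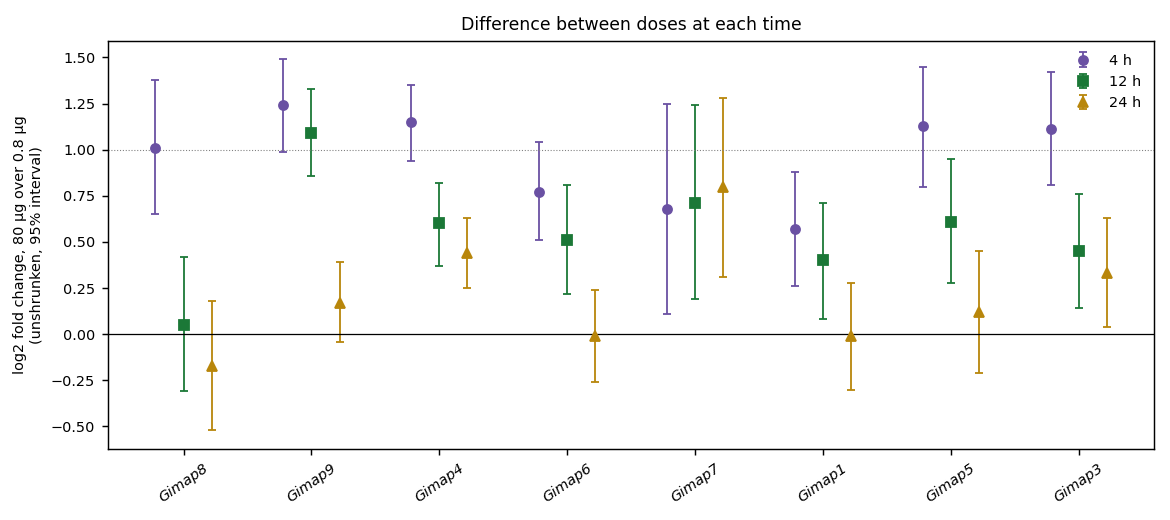
Unshrunken log2 fold change of 80 μg over 0.8 μg (y axis) for each Gimap gene at 4 h, 12 h and 24 h, with 95% intervals, n = 3 libraries a group. At 4 h all 8 intervals lie above 0, and at 24 h those of Gimap4, Gimap7 and Gimap3 do.

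By 12 h the dose difference was called for Gimap9 only (1.09 ± 0.12, adjusted p = 8.99e-17), where 1.8% of all genes were called higher. In a fit to the 6 libraries alone its value was 0.99 and no member was called. Gimap5 (0.61 ± 0.17), Gimap4 (0.59 ± 0.11) and Gimap6 (0.51 ± 0.15) passed the adjusted p alone, where 3.57% of all genes were higher. Gimap8 differed by 0.05 ± 0.19, with a 95% interval of -0.31 to 0.42. At 24 h DESeq2 called 0 members and edgeR called 0, where 0.802% of all genes were called higher and 0.654% lower, and 3 members had an unadjusted p below 0.05. Gimap7 (0.79 ± 0.24, adjusted p = 0.0301) and Gimap4 (0.44 ± 0.10, adjusted p = 0.000481) passed the adjusted p alone, where 3.24% of all genes were higher. The value for Gimap7 ranged from 0.64 to 0.92 without single libraries, and its adjusted p exceeded 0.05 without 0.8 μg 24 h replicate 1 (0.0907) or 3 (0.139), without 80 μg 24 h replicate 1 (0.102) or 3 (0.202), and with library totals as the scale (0.08). Gimap6 and Gimap1 each differed by -0.01, a sign that turned under edgeR.

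Whether the dose difference depended on time was tested as an interaction over the 18 immunised libraries. The test passed for 6 of the 8 members and for 9.05% of all 11143 genes tested. The strongest was Gimap9 (adjusted p = 5.75e-08), whose dose difference was 1.23, 1.09 and 0.17 at 4 h, 12 h and 24 h. Gimap4 (adjusted p = 0.00027) went from 1.14 to 0.59 and 0.44, and Gimap8 (adjusted p = 0.000701) from 1.00 to 0.05 and -0.17. Gimap5, Gimap6 and Gimap3 passed at adjusted p = 0.00418, 0.00751 and 0.0209. Gimap3 no longer passed, with an adjusted p of 0.051 to 0.105, without 0.8 μg 4 h replicate 1 or 3, 80 μg 4 h replicate 1 or 3, or 80 μg 24 h replicate 2. For Gimap7 the dose difference was 0.66, 0.70 and 0.79 (interaction adjusted p = 0.984), and for Gimap1 0.56, 0.39 and -0.01 (adjusted p = 0.208).

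Within each dose the step from 4 h to 12 h changed members in different ways, and the step to 24 h raised most of them. At 0.8 μg, Gimap6 was the member called lower at 12 h than at 4 h (-1.39 ± 0.15, adjusted p = 4.98e-20), against 7.63% of all genes, while Gimap5 (-0.84) and Gimap4 (-0.73) were lower and Gimap9 (0.41) higher by the adjusted p alone (17.3% of all genes lower and 19.8% higher). At 80 μg, 3 members were called lower, Gimap6 (-1.65 ± 0.14), Gimap5 (-1.35 ± 0.16) and Gimap4 (-1.28 ± 0.11), against 8.89% of all genes, while Gimap3 (-0.93), Gimap8 (-0.86) and Gimap1 (-0.37) were lower by the adjusted p alone (18.8% of all genes). Gimap7 was higher by the adjusted p alone (0.66 ± 0.26, adjusted p = 0.0315), as were 23% of all genes. Its 12 h libraries, with replicate 1 at 180 and the others at 85.1 and 80.7 normalised counts, overlapped those at 4 h. The 12 h and 4 h libraries of Gimap1 overlapped as well. From 12 h to 24 h at 0.8 μg 7 members were called higher, all but Gimap5, against 16.3% of all genes, with Gimap4 at 2.64 ± 0.11 and Gimap6 at 2.41 ± 0.14. Without 0.8 μg 24 h replicate 3 this count was 5, since Gimap1 (0.95) and Gimap3 (0.97) fell under the fold threshold. At 80 μg 5 members were called higher at 24 h than at 12 h, against 16.4% of all genes, again led by Gimap4 (2.49 ± 0.10) and Gimap6 (1.89 ± 0.14). With library totals as the scale this count was 3, since Gimap8 (0.83) and Gimap3 (0.89) fell under the fold threshold, and Gimap8 did so too without 80 μg 12 h replicate 2 (0.87) or 80 μg 24 h replicate 3 (0.89). Gimap5 did not pass there (-0.03 ± 0.17, adjusted p = 0.895). The gate changes with every one of these steps, and time and gate cannot be told apart.

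The make-up of the family's transcripts shifted accordingly. Gimap5 took 4.4% ± 0.3 of the summed normalised counts of the 8 genes in control (SD, n = 3), 16.1% ± 0.5 and 17.4% ± 1.3 at 4 h after 0.8 μg and 80 μg, 12.1% ± 1.5 and 12.2% ± 2.5 at 12 h, and 5% ± 0.7 and 4.6% ± 0.2 at 24 h. The share was thus higher in the 4 h and 12 h libraries of both doses than in any control library. The log2 ratio of Gimap5 to the sum of the other 7 members was -4.54 to -4.35 in control and -2.43 to -2.17 in the 6 libraries at 4 h, a difference of 2.11. This ratio was chosen after the values were seen. No test was run on it for that reason. Gimap4 took the largest share at 24 h, 31.1% ± 1.6 and 35.4% ± 1.2, against 24.5% ± 0.8 in control. The share of Gimap9 was 22.5% ± 0.7 at 12 h after 80 μg and 12.8% ± 0.2 in control, while its own level was lower, at 528 ± 61.1 normalised counts against 953 ± 36.4.

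**Figure D4:**
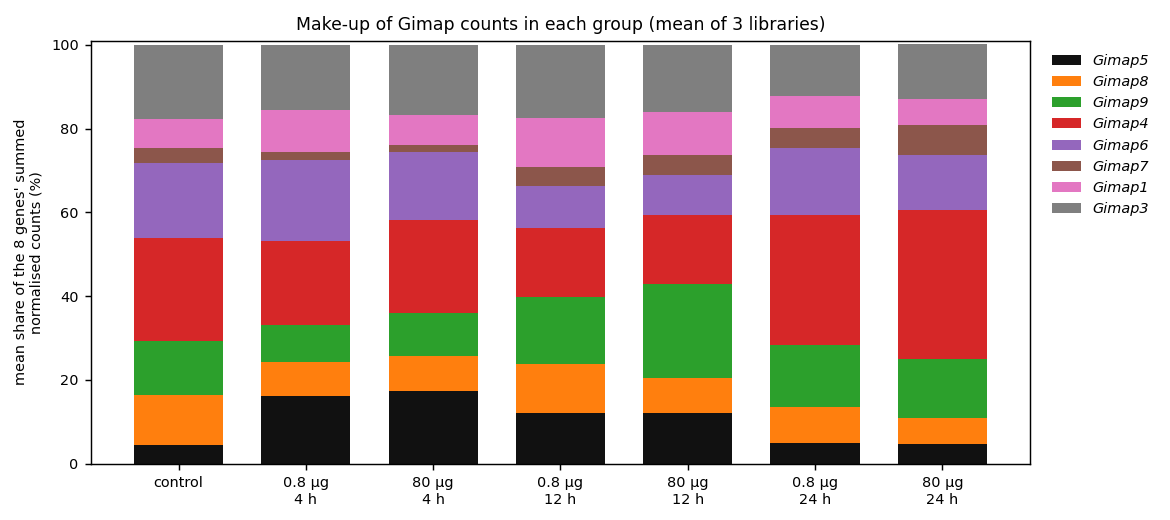
Mean share (y axis, percent) of each Gimap gene in the summed normalised counts of the 8 genes, by group, mean of 3 libraries. The black segment, Gimap5, is 4.4% of control and 16.1% to 17.4% of the 4 h groups.

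Over the 21 libraries the deposited rlog values of 7 members followed each other, whereas Gimap5 stood aside. The Pearson correlation of each with the mean of the other members was 0.96 for Gimap4, 0.95 for Gimap1 and for Gimap3, 0.90 for Gimap6, 0.88 for Gimap8, 0.86 for Gimap9 and 0.72 for Gimap7, and 0.20 for Gimap5. Between single members it ran from -0.18 for Gimap5 and Gimap7 to 0.93, reached by Gimap8 with Gimap3, Gimap4 with Gimap6, and Gimap1 with Gimap3. Gimap5 and its relative Gimap3 stood at 0.40. These are descriptions, since the 21 points share groups of 3. Over the 8745 genes whose mean normalised count reached 20, those most like the mean of the 8 members were Osbpl9 (r = 0.971), a lipid transfer protein, Bbx (0.959), Pde4b (0.955), a phosphodiesterase that breaks down cyclic AMP, Klhl24 (0.953) and Gm8369 (0.953). Chosen for that likeness, all 5 were lower than control at 4 h, by differing amounts. After 0.8 μg and 80 μg, Osbpl9 was at 28.9% and 58.2% of control, Bbx at 38.5% and 61.7%, and Pde4b at 7.32% and 48%. Klhl24 was at 5.61% and 12.5%, and Gm8369 at 17.8% and 30.8%.

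Genes within and around the cluster were read to see how far the pattern reached. Inside the cluster, the antisense gene Gimap1os held 144 ± 25.1 normalised counts in control, 25.6 ± 7.13 at 4 h after 0.8 μg and 78.6 ± 1.10 after 80 μg, and was called higher at the higher dose at 4 h (1.59 ± 0.27, adjusted p = 1.83e-07). Its interaction of dose with time passed too (adjusted p = 0.012). The strand setting of the counting is not stated, so reads from the bases that Gimap1 and Gimap1os share cannot be told apart. Gm28053 (1.27 ± 0.75, adjusted p = 0.331) and 4833403J16Rik (0.36 ± 0.34, adjusted p = 0.626) did not pass. Of the 8 nearest genes on either side, 16 in all, 11 had an adjusted p between doses at 4 h and 1 was called, Igf2bp3 (2.6% of all genes were called lower), which encodes an RNA-binding protein. It was lower at the higher dose (-1.27 ± 0.32, adjusted p = 0.00103), at 180 ± 15.2 after 0.8 μg and 72.9 ± 6.93 after 80 μg. Against control at 4 h after 0.8 μg, 7 of the 16 were called lower and 2 higher (22.9% and 16.9% of all genes). Krba1 (-2.14 ± 0.31), Zfp467 (-3.82 ± 0.68) and Lrrc61 (-2.42 ± 0.45) on the Gimap8 side were among those lower, Repin1 (1.29 ± 0.53) and Igf2bp3 (3.68 ± 0.38) were called higher, and Malsu1 did not pass (-0.07 ± 0.20).

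**Figure D5:**
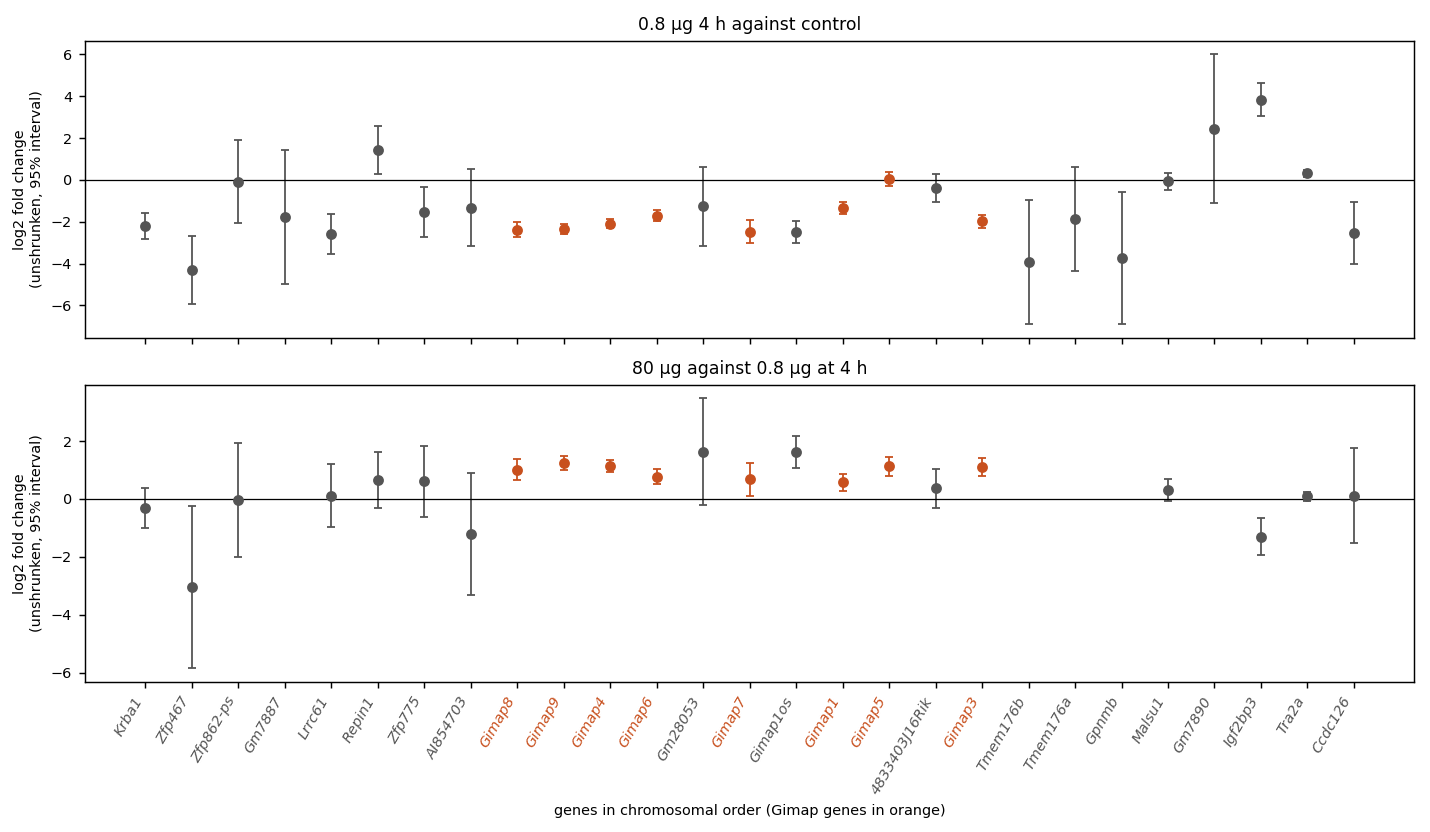
Unshrunken log2 fold change (y axis, 95% intervals, n = 3 libraries a group) of the Gimap genes (orange) and of the genes within and around the cluster (grey), in chromosomal order along the x axis, for 0.8 μg 4 h against control (top) and 80 μg against 0.8 μg at 4 h (bottom). Genes with too few counts for an adjusted p are not drawn. In the lower panel the 8 Gimap genes lie above 0, as do Gimap1os and some of the other genes, and Igf2bp3 is among those below.

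Lists of related genes were counted in the same fit. Of 17 other GTPases of immune defence, guanylate-binding proteins, immunity-related GTPases, Gvin1 and the Mx proteins, best known as induced by interferon, 16 were tested between doses at 4 h. Called higher were 9 of them (2.95% of all genes), with a median log2 fold change of 1.49 beside 1.06 for the Gimap genes. Igtp, Gbp7 and Iigp1 differed by 2.08 ± 0.19, 2.11 ± 0.23 and 2.90 ± 0.39. Against control at 4 h after 0.8 μg, 10 of the 17 were called lower (22.9% of all genes). At 24 h, 7 of the 16 tested were called higher than control after 0.8 μg, and 7 after 80 μg, where 11.2% and 12% of all genes were.

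Septins are structural relatives of the Gimap GTPases outside the family, and 9 of 11 listed were in the table. Between doses at 4 h 7 were tested, with a median of -0.29. 1 was called, Sept9, lower at 80 μg (-2.34 ± 0.39, where 2.6% of all genes were called lower) and named after its value was seen. Sept7, Sept6 and Sept11, the most counted septins, differed by -0.29 ± 0.07, 0.37 ± 0.10 and -0.73 ± 0.10, each by the adjusted p alone, where 5.79% of all genes were lower and 5.49% higher. Against control at 4 h after 0.8 μg 9 were tested, with a median of -1.18, and 3 were called higher and 3 lower (16.9% and 22.9% of all genes). Sept7 (1.32 ± 0.07) and Sept11 (2.91 ± 0.12) were among those higher and Sept6 (-1.02 ± 0.10) among those lower. The others called were Sept2 (1.21 ± 0.14), Sept1 (-1.79 ± 0.15) and Sept9 (-1.71 ± 0.30), named after their values were seen.

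Genes of resting T cells, 18 in the list, were mostly lower than control at 4 h, as the Gimap genes were, and split between doses. Called lower than control at 4 h after 0.8 μg were 12 of the 18 (22.9% of all genes), with a median of -2.06 beside -2.02 for the Gimap genes, and Slfn2 was called higher (1.03 ± 0.12, where 16.9% of all genes were). Between doses at 4 h 4 were called higher at 80 μg (2.95% of all genes), Il7r, the receptor for the survival cytokine IL-7 (2.04 ± 0.35), Satb1, a chromatin organiser (1.81 ± 0.19), Foxo1, a transcription factor of quiescent T cells (1.26 ± 0.12), and Ccr7, a homing receptor (1.18 ± 0.17). The 3 called lower (2.6% of all genes) were Klf3 (-1.68 ± 0.19), Tcf7 (-1.38 ± 0.14) and Lef1 (-1.16 ± 0.12), all transcription factors. Slfn2 and, except for Satb1, the genes called between doses were named after their values were seen. Foxp1 (-0.49 ± 0.11) and Ikzf1 (-0.48 ± 0.08), transcription factors of lymphocytes, were lower by the adjusted p alone. The median of the list was -0.44 between doses at 4 h.

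Of 19 genes for reported partners and pathways of Gimap proteins, the Bcl2 family and autophagy, 1 was called between doses at 4 h, a share near the 2.95% called higher and 2.6% called lower among all genes. This was Bcl2, which protects lymphocytes from death, at 1.06 ± 0.20 (adjusted p = 6.43e-06), with a median over the list of 0.21. Against control at 4 h after 0.8 μg 5 were called lower and 3 higher, shares near those of all genes (22.9% and 16.9%). Bcl2 was among those lower (-3.48 ± 0.20), and Bcl2l11, which encodes the death-promoting Bim, was among those higher (3.16 ± 0.14). The others lower were Tfeb (-2.81 ± 0.57), Bad (-2.75 ± 0.48), Gabarapl2 (-1.49 ± 0.26), which encodes the autophagy protein that Gimap6 binds, and Map1lc3b (-1.05 ± 0.23), and the others higher were Bcl2l1 (4.65 ± 0.22) and Bax (1.37 ± 0.30), all named after their values were seen. Mcl1, another protector, differed by -0.27 ± 0.12 from control at 4 h after 0.8 μg and by 0.41 ± 0.12 between doses at 4 h, both by the adjusted p alone. By that rule 28.5% of all genes were lower and 24.8% higher than control, and 5.49% were higher between doses at 4 h.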

How the data were processed

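Counts per gene were deposited for all 21 libraries as whole numbers: per the study's methods, the authors merged the sequencing lanes, trimmed reads with Bbduk v35.92, aligned them to GRCm38 with STAR v2.5.2a and counted them with HTSeq-count v0.6.0. The annotation release and the strand and overlap settings of the counting are not given in the sources used here. The authors also deposited log2 values, the regularised log (rlog) that DESeq2 made after removal of genes with fewer than 10 reads, and these served here only for correlations. The submitters' processing notes also name FastQC and SAMtools.

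Genes with at least 10 counts in total (15300 of 47643) were fitted with DESeq2 1.42.0 in R 4.3.3, with a single model of the 7 groups over all 21 libraries, Wald tests of 13 contrasts, Benjamini-Hochberg adjustment over all genes tested and normal-prior shrinkage of the log2 fold changes. A gene was called at an adjusted p below 0.05 with a shrunken log2 fold change beyond 1 in size. The dose by time interaction was a likelihood ratio test over the 18 immunised libraries. Normalised counts are counts divided by DESeq2's median-of-ratios size factors. As alternatives, edgeR 4.0.16 quasi-likelihood tests, other scalings and filters, a replicate block, fits to the compared libraries alone and fits without each library in turn were run. The fits were tested on simulated data.

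The members and gene lists were chosen with earlier results of these data known. Named genes were all 8 members, the 8 nearest filtered genes on either side of the cluster, the 3 most counted genes of each list and the 5 genes most like the members by rlog correlation, and other genes were named after their values were seen, as stated beside them. In the deposited names 18 symbols had been turned into dates, septins among them, and were replaced by the GENCODE vM21 symbol of the same gene ID. Promoter windows are RefSeq's for GRCm38.p6. Protein sequences were not used here. Totals of 2352800 to 6244279 counts set the precision, and a floor of 3 counts corresponds to 0.48 to 1.275 CPM, counts scaled to a total of 1000000. Intervals cover the spread between libraries as the model fits it.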

Additional observations from a re-analysis of the deposited data

Results flagged for a closer look

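The difference between doses changed with time for 6 of the 8 Gimap genes, by the DESeq2 likelihood ratio test of the interaction over the 18 immunised libraries, a test passed by 9.05% of all genes. Gimap9 had an adjusted p of 5.75e-08, with a dose difference (log2, 80 μg over 0.8 μg) of 1.23 at 4 h and 0.17 at 24 h. For Gimap4 the adjusted p was 0.00027, with 1.14 at 4 h and 0.44 at 24 h. Gimap8 had 0.000701 and went from 1.00 to -0.17. Gimap5, with 0.00418, went from 1.12 to 0.12. Gimap6, with 0.00751, went from 0.77 to -0.01. Gimap3, with 0.0209, went from 1.11 to 0.33, and it no longer passed without some single libraries, when 5 members did. The sorting gate changed with time for both doses alike, so that time and gate cannot be told apart in these differences. Groups of 3 are too small for a search for single libraries that stand apart.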

How the results depend on the processing

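The counts of called Gimap genes kept their values under edgeR, without a low count filter and with a replicate block in all 14 comparisons. With the block, 5 members were called between doses at 4 h and 6 had the interaction, as without it. The libraries were taken to share only a number: same-numbered libraries of different groups correlated by -0.2 to 0.21 in their deviations from the group means (63 pairs, 11 of them over 0.1), and 19 of the 63 correlated best with their own number. The replicate 3 libraries of the 4 h and 12 h groups correlated by 0.12 to 0.21 in their 6 pairs, a hint from the data and not from the design. Without the fold threshold the counts were 7, 4 and 2 for the doses at 4 h, 12 h and 24 h. Against control they were 7, 8 and 5 after 0.8 μg and 8, 7 and 6 after 80 μg, in the same order. From 4 h to 12 h they were 4 and 7, and from 12 h to 24 h 8 and 7, for 0.8 μg and 80 μg. In fits to the 6 libraries compared, the counts were 0 for the doses at 12 h and 0 for 0.8 μg 24 h against control. Gimap8 was also no longer called between doses at 4 h in such a fit, nor with genes limited to a mean of at least 20 counts. A fit to the 6 libraries also left Gimap8 uncalled for 80 μg 24 h against 12 h (0.95). With library totals as the scale the counts were 7 for 80 μg 4 h against control and 3 for 80 μg 24 h against 12 h. On that scale Gimap8 was again not called between doses at 4 h, nor was Gimap1 for 0.8 μg 24 h against 12 h (0.98). That scale moved the median of all genes by over 0.1 in 8 of 13 comparisons, in that of 80 μg 24 h with control from -0.00 to -0.23. Leaving out each library in turn gave 4 to 5 called between doses at 4 h, 1 to 1 at 12 h and 0 to 0 at 24 h. Against control it gave 7 to 7, 7 to 7 and 0 to 2 after 0.8 μg, and 4 to 4, 5 to 6 and 1 to 1 after 80 μg, at 4 h, 12 h and 24 h. From 4 h to 12 h it gave 1 to 1 and 3 to 4, from 12 h to 24 h 5 to 7 and 4 to 5, for 0.8 μg and 80 μg, and for the interaction 5 to 6. No called value changed sign under any of these settings. Each setting differs from the reported fit by its own construction (no fold threshold, fewer libraries, another scale), and the cause of the changed counts was not tested further. With 26 counts in its lowest library, Gimap7 had the largest errors among the members.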
